A study of Mus musculus with 15 samples.

Results

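The genes described here are 8 amino acid carriers of the plasma membrane and asparagine synthetase, chosen by symbol from a deposited expression table of mouse germinal centre B cells and plasmablasts. All 9 symbols (Slc7a5, Slc3a2, Slc7a6, Slc7a1, Slc1a5, Slc1a4, Slc38a1, Slc38a2 and Asns) were among its 23420 rows, and all 9 were among the 11190 genes tested. The study sorted 100 cells into each of 15 libraries, 3 in each of 5 groups, on day 12 after immunization. CD45.1+ B cells carrying the B1-8hi knock-in (KI/+), an antigen receptor chain that favours binding of the hapten NP, were put into C57BL6 mice. These were then immunized with NP-CGG in CFA, and cells were sorted from the draining lymph node. Germinal centre derived plasmablasts (GC-PB) were CD138hi CD44hi tdTomato+ cells from donors with B1-8hi (KI/+), the transgene S1pr2-ERT2cre Tg and the reporter ROSA-Ai14 (KI/+), and their hosts were given tamoxifen on days 6, 7 and 8. The other groups came from B1-8hi (KI/+) Bcl6-YFP (KI/+) donors, with no tamoxifen given in the labels, and were sorted as CD38lo GL7hi. Among these, Fraction 1 was the Bcl6lo CD69hi part of the light zone (CXCR4lo CD86hi), Fraction 2 the Bcl6hi CD69hi part and Fraction 3 the Bcl6hi CD69lo part, and DZ was the dark zone (CXCR4hi CD86lo). GC-PB are marked only where the tamoxifen-dependent Cre, driven from S1pr2, a gene of germinal centre B cells, had acted, so the marked cells are those that carried S1pr2-driven Cre during the tamoxifen days or descend from them.

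Amino acids enter lymphocytes through carriers of the SLC families. Slc7a5 encodes LAT1, the light chain that moves large neutral amino acids such as leucine, and it reaches the membrane only as a heterodimer with the heavy chain CD98 encoded by Slc3a2, which also serves other light chains, among them that of Slc7a6. Leucine and arginine are read inside the cell by the mTORC1 pathway, and shortage of amino acids is read by the kinase GCN2, which raises translation of the transcription factor ATF4. ATF4 in turn is known to induce Asns, several carriers and enzymes of serine and one-carbon metabolism. In germinal centres, light zone B cells that receive T cell help raise Myc and mTORC1 activity before they divide in the dark zone, and plasmablasts secrete antibody at a high rate.

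Levels are the deposited signal brought to the same library total of 38594, with the ribosomal RNA precursor Rn45s left out of the total. A change is the log2 difference of level + 1 between group means, with its SE, from 1 limma fit over the 15 libraries, and a gene was called where its p, adjusted by Benjamini-Hochberg over all 11190 tested genes, was under 0.05. Because of the added 1, such a change understates the ratio of levels for low genes. Levels of different genes were not compared, since tags per gene also depend on the transcript. A molecule is 1 step of a library's signal, which stood for a level of 0.108 to 0.233. Per the labels each replicate is its own library preparation. Whether replicates stem from different animals is not given there, so a p-value measures the spread among these libraries, which may be technical. In sorted pools, fewer cells that express a gene and less RNA per cell cannot be told apart.

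The deposited totals ran from 27942 to 115088, or 184103 to 376992 molecules per library, with between 9185 and 10132 genes detected. Sdc1 (CD138) averaged 13.6 in GC-PB, 0.0392 in Fraction 1 and 0 in Fraction 2, Fraction 3 and DZ, and Bcl6 was 0 in GC-PB, 3.97 in Fraction 1 and 15.5 in Fraction 2. Cd69 transcript was 2.91 ± 0.884 in Fraction 2 and 2.17 ± 0.501 in Fraction 3 (SD, n = 3 each), and their libraries overlapped. In every library of every group Cd3e, Cd4, all 4 NK cell markers, Itgam, Mpo and S100a8 were at 0. Other markers of such cells were detected. The summed dendritic cell markers ran from 1.44 in Fraction 1 to 4.6 in Fraction 3. Sums reached 1.27 for stromal and follicular dendritic cells (Fraction 2) and 1.06 for erythroid cells (Fraction 3). They reached 0.701 for macrophages and monocytes (Fraction 3) and 0.123 for neutrophils (Fraction 1). The summed T cell markers (7 of 8 in the table) ran from 9.71 to 11.4 in GC-PB, 3.41 to 5.42 in Fraction 1, 4.6 to 5.88 in Fraction 2, 3.76 to 4.91 in Fraction 3 and 1.59 to 2.24 in DZ. In GC-PB 4 of these 7 were at 0 in all libraries, and Cd3g and Cd28 were among those detected. The 6 libraries of GC-PB and Fraction 1 carried Xist (8.94 to 14.4), while the other 9 libraries had none and carried Ddx3y instead (3.91 to 6.21). Every comparison of GC-PB or Fraction 1 with Fraction 2, Fraction 3 or DZ crosses this divide, and in such a comparison a difference between fractions and this divide cannot be told apart. GC-PB vs Fraction 1, Fraction 2 vs Fraction 3 and Fraction 3 vs DZ each lie on 1 side of it. The deposited signal of 1 molecule splits the libraries in the same way, at 0.305 to 0.362 in GC-PB and Fraction 1 and 0.105 to 0.139 in the other 9, whereas the molecules per library were alike in Fraction 1 (326122 to 376992) and Fraction 2 (335639 to 368603). Values on the deposited scale carry this step wherever a comparison crosses the divide. Donor genotype and tamoxifen separate GC-PB from all other groups, also in GC-PB vs Fraction 1. In every comparison with GC-PB, cell state and these differences cannot be told apart.

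The scale mattered for the balance of calls among all genes. At equal totals 1573 genes were higher and 2491 lower in GC-PB vs Fraction 1, and 424 were higher and 587 lower in Fraction 1 vs Fraction 2. Scaled by median ratios, these counts were 2085 and 1963 in GC-PB vs Fraction 1, and 519 and 391 in Fraction 1 vs Fraction 2. With median ratios GC-PB vs Fraction 2 had 1928 higher and 1686 lower genes (1354 and 2655 at equal totals), and GC-PB vs DZ had 1974 and 1778 (1405 and 2612 at equal totals). On the deposited scale the median of all genes lay at -0.42 in GC-PB vs Fraction 1, 0.64 in Fraction 1 vs Fraction 2, 0.15 in Fraction 2 vs Fraction 3 and 0.76 in Fraction 1 vs DZ, and changes below are relative to equal totals.

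Among the 9 genes, Slc3a2 was called higher in GC-PB vs Fraction 1 and in Fraction 1 vs Fraction 2. Slc7a5 was called higher in Fraction 1 vs Fraction 2 and was not called in GC-PB vs Fraction 1. Asns, Slc7a1 and Slc38a1 were lower in GC-PB than in Fraction 1. In GC-PB vs Fraction 1, 1 of 9 was called higher and 3 of 9 lower, where 14.1% of all tested genes were called higher and 22.3% lower. In Fraction 1 vs Fraction 2, 2 of 9 were called higher and 0 lower by limma (3 higher and 0 lower at an unadjusted p under 0.05), against 3.79% and 5.25% of all genes. The count of 2 was 1 without Fraction 1 replicate 1 and 0 without Fraction 2 replicate 2. In Fraction 2 vs Fraction 3, 0 of 9 were called in either direction by limma, 1 was higher at an unadjusted p under 0.05 (Asns), and the background was 0.438% higher and 0.25% lower. In Fraction 3 vs DZ, 0 of 9 were called in either direction by limma, 1 was higher (Slc3a2) and 1 lower (Slc38a1) at an unadjusted p under 0.05, and the background was 0.572% higher and 0.483% lower. The median change of the 9 genes was -0.35 in GC-PB vs Fraction 1, 0.11 in Fraction 1 vs Fraction 2, 0.14 in Fraction 2 vs Fraction 3 and 0.03 in Fraction 3 vs DZ. The median over all tested genes was -0.06, -0.04, 0.00 and 0.00 in the same comparisons. In Fraction 1 vs DZ, the widest span of the germinal centre groups, 5 of 9 were called higher and 2 of 9 lower, against 9.69% and 11.4% of all genes. Without any 1 of the 6 libraries, 3 to 4 were higher (3 without Fraction 1 replicate 3) and 0 to 1 lower (0 without Fraction 1 replicate 2 or DZ replicate 1).

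**Figure D1:**
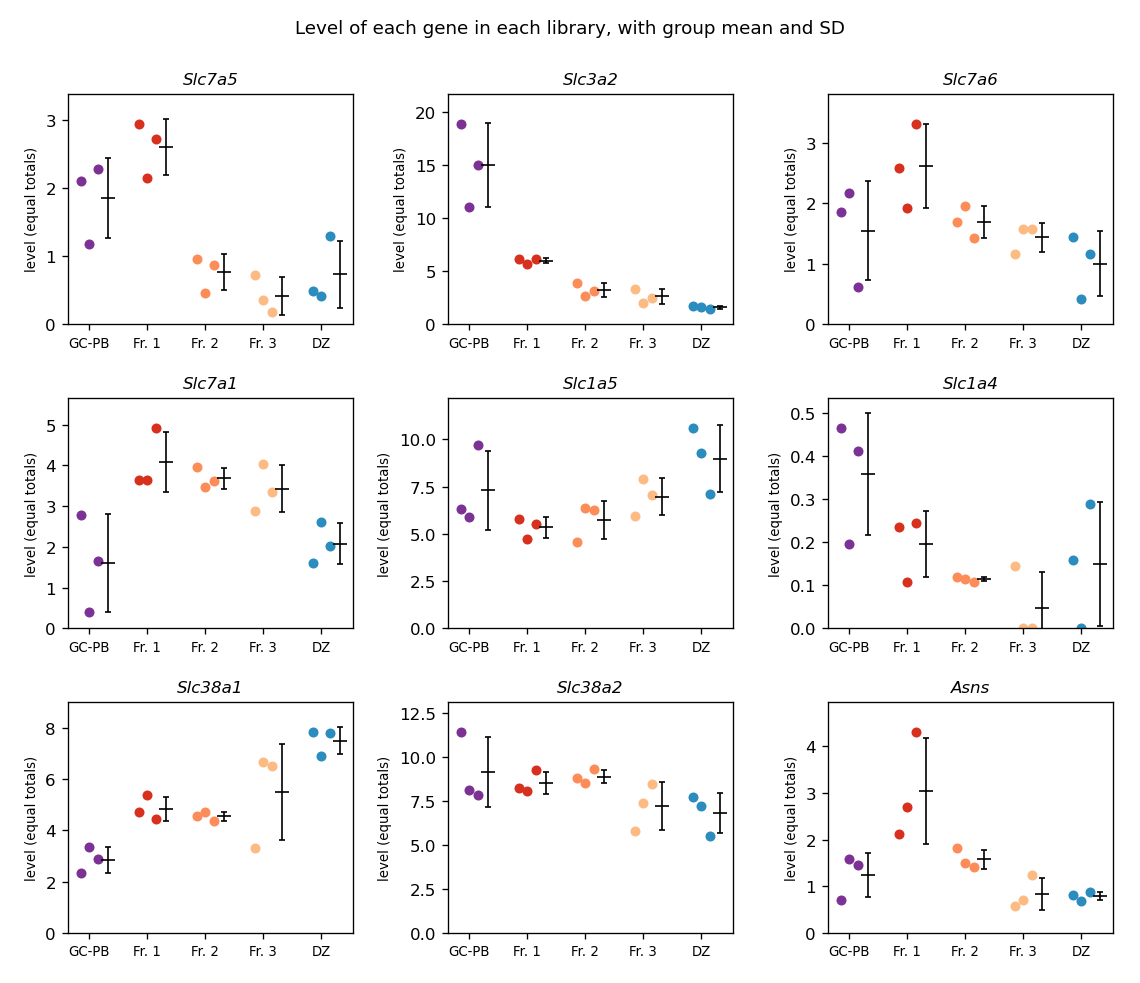
Level at equal library totals (y axis, linear, separate scale for each gene) of the 9 genes in each library (points) of GC-PB, Fraction 1, Fraction 2, Fraction 3 and DZ, with the mean and SD of 3 libraries (black bars). Slc3a2 lies between 11 and 18.9 in GC-PB and between 5.71 and 6.16 in Fraction 1, while Slc7a5 is highest on average in Fraction 1 (2.15 to 2.94).

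Slc3a2 (chromosome 19, 8706882 to 8723369, minus strand, mm10), the CD98 heavy chain, was at 18.9, 11 and 15 in the GC-PB libraries, 6.12, 5.71 and 6.16 in Fraction 1, 3.91, 2.65 and 3.12 in Fraction 2, 3.35, 2.01 and 2.51 in Fraction 3 and 1.76, 1.59 and 1.47 in DZ. The lowest GC-PB library stood above the highest Fraction 1 library, and the lowest of these above every Fraction 2 library. Fractions 2 and 3 overlapped, and both lay above all DZ libraries. Slc3a2 was 2.49 times as high in GC-PB as in Fraction 1 by the group means (1.16 ± 0.18, adjusted p = 3.01e-05, limma), the only call among the 9 genes in that direction, and this call held without any 1 library and on each scale tried (0.56 as deposited, 1.46 with median ratios). It was 1.86 times as high in Fraction 1 as in Fraction 2 (0.74 ± 0.18, adjusted p = 0.0143), a call that did not hold when Fraction 1 replicate 1 (0.72) or Fraction 2 replicate 2 (0.64) was left out. The order of levels was GC-PB, Fraction 1, Fraction 2, Fraction 3 and DZ, in which Fraction 2 vs Fraction 3 (adjusted p = 0.731) and Fraction 3 vs DZ (adjusted p = 0.35) were not called, the second although no libraries overlapped. Over wider spans GC-PB exceeded DZ by 2.59 ± 0.18 (adjusted p = 3.53e-10, with 12.6% of all genes called higher) and Fraction 1 exceeded DZ by 1.42 ± 0.18 (adjusted p = 7.29e-06). Fraction 2 exceeded DZ by 0.69 ± 0.18 (adjusted p = 0.0398, with 1.66% of all genes called higher), a call lost without any 1 of 5 of the 6 libraries (Fraction 2 replicate 1 or 3, or any DZ replicate, 0.57 to 0.73), with median ratios (0.70), with 4 added (0.36) and with no filter. These libraries held 209.5 molecules of Slc3a2 in GC-PB, 155.1 in Fraction 1, 84.0 in Fraction 2, 48.9 in Fraction 3 and 32.7 in DZ. Several of its values were not whole multiples of a molecule, and how the authors shared such reads is not given in the sources used here. The summed T cell markers were also highest in GC-PB. Of these, Cd3e and Cd4 were at 0 in all 15 libraries, and Cd3d and Cd8a in all of GC-PB. Cd3g was detected in GC-PB and Fraction 2 only, and Cd28 in GC-PB, Fraction 1 and DZ only. In Fraction 3, 6 of the 7 markers in the table were at 0, so its sum of 3.76 to 4.91 came from the 1 left. That marker was detected in every group.

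Slc7a5 (chromosome 8, 121881150 to 121907694, minus strand), the LAT1 light chain, was at 2.1, 1.18 and 2.27 in GC-PB, 2.94, 2.15 and 2.71 in Fraction 1, 0.963, 0.461 and 0.875 in Fraction 2, 0.723, 0.35 and 0.176 in Fraction 3 and 0.48, 0.414 and 1.3 in DZ. The Fraction 1 libraries and the GC-PB libraries overlapped, and all 3 of Fraction 1 lay above every library of Fraction 2, Fraction 3 and DZ. Its depth was small: 26 molecules in the GC-PB libraries together, 67 in Fraction 1, 20 in Fraction 2, 8 in Fraction 3 and 15 in DZ. Slc7a5 was 3.39 times as high in Fraction 1 as in Fraction 2 by the group means (1.03 ± 0.24, adjusted p = 0.00822, limma). This call was lost without Fraction 2 replicate 2 (0.90). Its change in GC-PB vs Fraction 1 was -0.35 ± 0.24 (adjusted p = 0.274). GC-PB still exceeded Fraction 2 by 0.68 ± 0.24 (adjusted p = 0.0298, with 12.1% of all genes called higher), a call lost without GC-PB replicate 1 (0.61), GC-PB replicate 3 (0.57) or Fraction 2 replicate 2 (0.55). The order was Fraction 1, GC-PB, Fraction 2, DZ and Fraction 3, and among neighbours in it Fraction 1 and GC-PB, Fraction 2 and DZ (adjusted p = 0.971) and DZ and Fraction 3 (adjusted p = 0.785) overlapped and were not called. Fraction 1 exceeded DZ by 1.09 ± 0.24 (adjusted p = 0.002), and this call held without any 1 library.

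**Figure D2:**
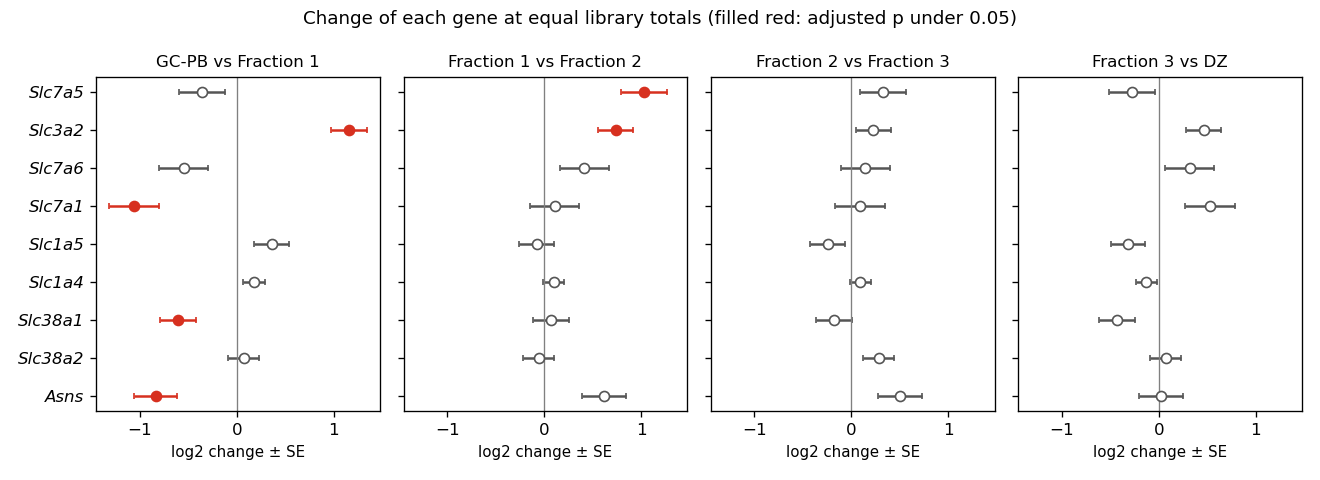
Change in log2(level + 1) at equal library totals (x axis, with SE) of each gene (rows) in GC-PB vs Fraction 1, Fraction 1 vs Fraction 2, Fraction 2 vs Fraction 3 and Fraction 3 vs DZ. Filled red points passed an adjusted p of 0.05: 4 genes in GC-PB vs Fraction 1, 2 in Fraction 1 vs Fraction 2 and 0 in the others.

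Slc3a2 was also set against Slc7a5 library by library, as log2 of the quotient of level + 1. This log2 ratio was 2.68, 2.46 and 2.29 in GC-PB, 0.853, 1.09 and 0.948 in Fraction 1, 1.32, 1.32 and 1.13 in Fraction 2, 1.34, 1.16 and 1.58 in Fraction 3 and 0.9, 0.872 and 0.102 in DZ. With 1 added, all GC-PB libraries lay above all others, and the Fraction 1 libraries lay below all of Fraction 2. The place of GC-PB above all others rests on that added 1. In Fraction 3 replicate 3, Slc3a2 stood at 2.51 and Slc7a5 at 0.176, on 1 molecule. Without an added constant, that quotient lies above those of GC-PB (18.9 over 2.1, 11 over 1.18 and 15 over 2.27). The mean was 2.48 ± 0.197 in GC-PB and 0.964 ± 0.12 in Fraction 1 (SD, n = 3 each), a difference of 1.51 (two-sided exact permutation p = 0.1). No smaller p is possible with groups of 3, and adjusted over the 4 comparisons it was 0.133. The ratio differed by -0.30 in Fraction 1 vs Fraction 2 and by 0.73 in Fraction 3 vs DZ (exact permutation p = 0.1, adjusted 0.133, for both), and by -0.10 in Fraction 2 vs Fraction 3 (exact permutation p = 0.4, adjusted 0.4). Without Fraction 3 replicate 3 the last difference was 0.01, and with deposited values in the ratio it was 0.08. Because of the added 1 the ratio moves with the scale. With deposited values the difference was 1.56 in GC-PB vs Fraction 1, -0.15 in Fraction 1 vs Fraction 2 and 0.62 in Fraction 3 vs DZ. With 0.25 added in place of 1 it was 1.72, -0.66 and 1.14 in the same comparisons and -0.37 in Fraction 2 vs Fraction 3. Without DZ replicate 3, the lowest library, Fraction 3 vs DZ differed by 0.47.

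**Figure D3:**
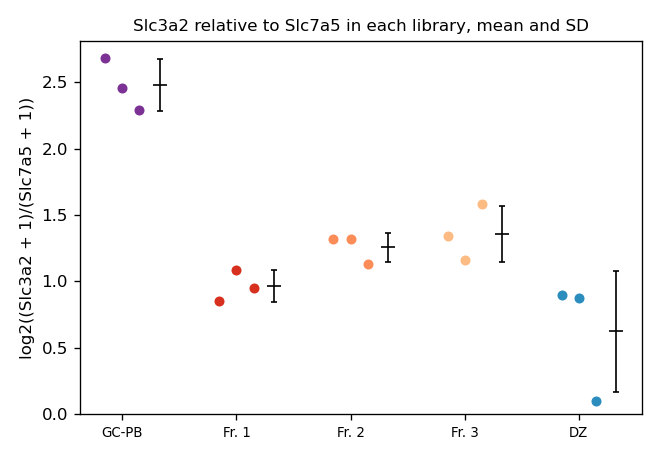
Log2 of (Slc3a2 level + 1) over (Slc7a5 level + 1) in each library (points), with the mean and SD of 3 libraries (black bars), at equal library totals. The GC-PB libraries lie between 2.29 and 2.68, above all other libraries, and DZ replicate 3 is lowest at 0.102.

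Asns (chromosome 6, 7675169 to 7693254, minus strand) encodes asparagine synthetase, which makes asparagine from aspartate with glutamine as the nitrogen donor and is a standard ATF4 target. Its levels were 0.699, 1.58 and 1.45 in GC-PB, 2.12, 2.69 and 4.31 in Fraction 1, 1.81, 1.5 and 1.42 in Fraction 2, 0.579, 0.701 and 1.23 in Fraction 3 and 0.801, 0.69 and 0.868 in DZ. All Fraction 1 libraries lay above all libraries of the other groups, and all Fraction 2 libraries lay above those of Fraction 3 and DZ, while GC-PB overlapped Fraction 2, Fraction 3 and DZ. Together the libraries held 18 molecules in GC-PB, 78 in Fraction 1, 41 in Fraction 2, 15 in Fraction 3 and 16 in DZ. Asns was lower in GC-PB than in Fraction 1 (-0.84 ± 0.23, adjusted p = 0.00565, limma), a call lost without Fraction 1 replicate 3 (-0.62). Fraction 1 exceeded DZ by 1.14 ± 0.23 (adjusted p = 0.000837), 3.86 times by the group means, and this call held without any 1 library. No neighbours in the order Fraction 1, Fraction 2, GC-PB, Fraction 3 and DZ passed the test: the change was 0.61 ± 0.23 in Fraction 1 vs Fraction 2 (adjusted p = 0.102), -0.22 in GC-PB vs Fraction 2 (adjusted p = 0.482), 0.28 in GC-PB vs Fraction 3 (adjusted p = 0.368) and 0.03 in Fraction 3 vs DZ (adjusted p = 1). Fraction 1 vs Fraction 2 passed where only genes with a mean level of at least 1 were tested.

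Promoter sequence was searched for the composite C/EBP-ATF element TGATGNAA, which ATF4 can bind, and for the E-box CACGTG, which MYC can bind, on both strands of the RefSeq windows of 300 bases on GRCm38.p6. Windows were matched for 6 of the 9 genes, Slc3a2, Slc1a4, Slc7a1, Slc7a6, Slc38a2 and Asns. TGATGNAA was found in those of Asns and Slc1a4, and CACGTG in none of the 6. Of all 32851 windows, 3.97% held TGATGNAA and 7.15% held CACGTG. The 30 bases around each match are shown, 5′ to 3′ on the strand of the gene, with the element in capitals, because these are the ATF4-type elements among the 6 genes.
Asns: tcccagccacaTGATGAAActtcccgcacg
Slc1a4: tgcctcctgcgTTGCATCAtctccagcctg
The Asns stretch is chr6:7693214-7693243 (minus strand). Its element begins at base -23, counted from the RefSeq start site, and lies inside the bounds of the GENCODE gene model, which begins farther upstream. An element with these letters is known from the human ASNS promoter as part of the nutrient-sensing unit. The Slc1a4 stretch is chr11:20332699-20332728 (minus strand), and its element runs on the opposite strand from base -4 across the start site. A match is a description of the sequence only.

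Atf4 itself and Myc were set beside Asns. Atf4 was at 24.2, 13.2 and 19.8 in GC-PB, 12.7, 13.0 and 11.4 in Fraction 1, 10.6, 10.6 and 9.85 in Fraction 2, 10.6, 12.6 and 8.63 in Fraction 3 and 10.4, 11.9 and 10.4 in DZ. The GC-PB libraries lay above all others, the lowest of them close to the highest of Fraction 1. Atf4 was higher in GC-PB than in Fraction 1 (0.55 ± 0.17, adjusted p = 0.0125, limma), where Asns was lower, but on the deposited scale its sign turned (-0.11), and the call was lost without GC-PB replicate 1 (0.36) or Fraction 1 replicate 3 (0.50). ATF4 is controlled largely at translation, which transcript levels do not show. Myc averaged 1.45 ± 0.762 in GC-PB, 12.2 ± 2.24 in Fraction 1, 4.46 ± 0.641 in Fraction 2, 3.03 ± 1.17 in Fraction 3 and 0.581 ± 0.215 in DZ (SD, n = 3 each). Like Asns it was highest in Fraction 1, and it was lower in GC-PB than in Fraction 1 (-2.46 ± 0.23, adjusted p = 1.99e-08).

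**Figure D4:**
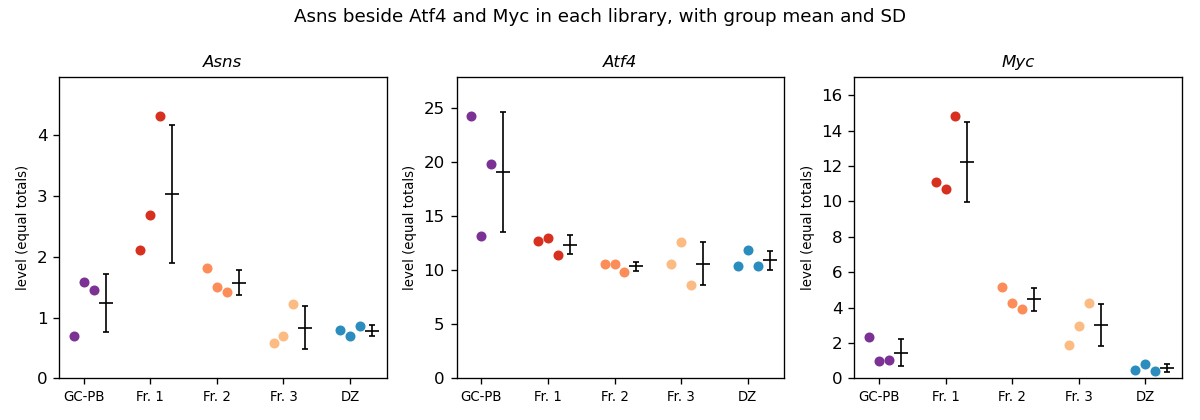
Level at equal library totals (y axis, linear, separate scale for each gene) of Asns, Atf4 and Myc in each library (points), with the mean and SD of 3 libraries (black bars). Asns and Myc are highest in Fraction 1 (2.12 to 4.31 and 10.7 to 14.8), and Atf4 is highest in GC-PB (13.2 to 24.2).

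Of the cationic amino acid carriers, Slc7a1 (chromosome 5, 148327410 to 148399904, minus strand) encodes CAT1, which imports arginine and lysine. Its levels were 2.79, 0.394 and 1.65 in GC-PB, 3.65, 3.65 and 4.92 in Fraction 1, 3.97, 3.46 and 3.61 in Fraction 2, 2.89, 4.03 and 3.35 in Fraction 3 and 1.6, 2.62 and 2.03 in DZ. The GC-PB libraries were spread widely and all lay below Fraction 1, and the 3 light zone fractions overlapped. Slc7a1 was lower in GC-PB than in Fraction 1 (-1.06 ± 0.26, adjusted p = 0.00214, limma), with 22 molecules in the GC-PB libraries together and 105 in those of Fraction 1. This call held without any 1 library, and the change was smallest without GC-PB replicate 2, the lowest library (-0.67). Fraction 1 exceeded DZ by 0.72 ± 0.26 (adjusted p = 0.0482), a call lost without any 1 of 5 of the 6 libraries (all but DZ replicate 2, 0.61 to 0.78). It was also lost with median ratios (0.82), with 0.25 added (0.90), with no filter and with no intensity trend. No neighbours in the order Fraction 1, Fraction 2, Fraction 3, DZ and GC-PB were called (adjusted p of 0.326 to 0.962), although all Fraction 3 libraries lay above all DZ libraries.

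Slc7a6 (chromosome 8, 106168857 to 106198706, plus strand) encodes y+LAT2, a CD98-bound light chain that exchanges arginine for neutral amino acids. It was at 1.86, 2.17 and 0.62 in GC-PB, 2.59, 1.93 and 3.32 in Fraction 1, 1.69, 1.96 and 1.42 in Fraction 2, 1.16, 1.58 and 1.58 in Fraction 3 and 1.44, 0.414 and 1.16 in DZ. Every neighbouring pair of groups overlapped. The one call for Slc7a6 over the 10 pairs of groups was Fraction 1 above DZ (0.87 ± 0.25, adjusted p = 0.0166, limma), lost without Fraction 1 replicate 3 (0.73) or DZ replicate 2 (0.64). In GC-PB vs Fraction 1 its change was -0.54 ± 0.25 (adjusted p = 0.101).

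Slc1a5 (chromosome 7, 16781340 to 16798274, plus strand) encodes ASCT2, a sodium-dependent exchanger of glutamine and other neutral amino acids, and it ran in the other direction within the germinal centre groups. Its levels were 6.29, 5.91 and 9.71 in GC-PB, 5.77, 4.73 and 5.54 in Fraction 1, 4.57, 6.34 and 6.24 in Fraction 2, 5.93, 7.88 and 7.04 in Fraction 3 and 10.6, 9.25 and 7.09 in DZ. All Fraction 1 libraries lay below all DZ libraries, and GC-PB overlapped DZ. Slc1a5 was lower in Fraction 1 than in DZ at equal totals (-0.64 ± 0.18, adjusted p = 0.0134, limma), but higher on the deposited scale (0.97), and the call was lost without Fraction 1 replicate 2 (-0.57) or DZ replicate 1 (-0.53). In GC-PB vs Fraction 1 its change was 0.36 ± 0.18 (adjusted p = 0.127) at equal totals, it was called higher with median ratios (0.64), and its sign turned on the deposited scale (-0.26). No neighbours in the order DZ, GC-PB, Fraction 3, Fraction 2 and Fraction 1 were called (adjusted p of 0.25 to 0.892).

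Slc1a4 (chromosome 11, 20302180 to 20332713, minus strand), the related carrier ASCT1 of alanine, serine, cysteine and threonine, was near the limit of detection. It was found with 5 molecules in the GC-PB libraries together, 5 in Fraction 1, 3 in Fraction 2, 1 in Fraction 3 and 3 in DZ, and with 0 to 2 molecules in any 1 library. No fold is given on so few molecules. One pair passed the test, GC-PB above Fraction 3 (adjusted p = 0.012, limma, with 13.1% of all genes called higher), on 5 molecules against 1, and the call was lost in a fit of those 2 groups alone.

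Slc38a1 (chromosome 15, 96571418 to 96642913, minus strand) encodes SNAT1, a sodium-coupled importer of glutamine and other small neutral amino acids. It was at 2.33, 3.35 and 2.89 in GC-PB, 4.71, 5.37 and 4.43 in Fraction 1, 4.57, 4.73 and 4.38 in Fraction 2, 3.33, 6.66 and 6.52 in Fraction 3 and 7.85, 6.9 and 7.81 in DZ. All DZ libraries lay above all others, and the GC-PB libraries lay below all of Fraction 1 and Fraction 2. At the ends of this order GC-PB was lower than DZ by the test (-1.15 ± 0.19, adjusted p = 4.05e-05, limma, with 23.3% of all genes called lower), 0.38 times its mean. On the deposited scale that change was -0.25 and was not called. Slc38a1 was lower in GC-PB than in Fraction 1 (-0.60 ± 0.19, adjusted p = 0.0137), a call lost with median ratios (-0.40) and without GC-PB replicate 1 (-0.50) or Fraction 1 replicate 2 (-0.54). It was lower in GC-PB than in Fraction 2 (-0.54 ± 0.19, adjusted p = 0.0281, with 23.7% of all genes called lower), but its sign turned on the deposited scale (0.06), and the call was lost with median ratios (-0.23) and without any 1 of GC-PB replicate 1 and the 3 Fraction 2 replicates (-0.56 to -0.43). Slc38a1 was also lower in Fraction 1 than in DZ (-0.55 ± 0.19, adjusted p = 0.0393), but higher on the deposited scale (1.04), and that call was lost without any 1 of the 6 libraries (-0.61 to -0.50), with median ratios (-0.48), with Rn45s kept in the total (-0.51), with 0.25 added (-0.61) and with no filter. The neighbours DZ and Fraction 3 (adjusted p = 0.404), Fraction 3 and Fraction 1 (adjusted p = 0.755) and Fraction 1 and Fraction 2 (adjusted p = 0.904) were not called, although all DZ libraries lay above those of Fraction 3.

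Slc38a2 (chromosome 15, 96687392 to 96699730, minus strand), the neighbouring gene of the same family, encodes SNAT2, which is known to rise when amino acids are short. It was at 11.4, 8.08 and 7.85 in GC-PB, 8.24, 8.06 and 9.23 in Fraction 1, 8.79, 8.53 and 9.3 in Fraction 2, 5.79, 7.36 and 8.45 in Fraction 3 and 7.69, 7.18 and 5.5 in DZ. No pair of the 10 was called for it by limma at equal totals, and its changes between neighbouring groups of the sort ran from -0.06 to 0.28. It was read at 128 to 232 molecules per group, among the deepest of the 9 genes.

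Likeness over the 15 libraries was described by Pearson's r on log2(level + 1), with no test, since the 5 groups and the divide by Xist shape every such value. Slc7a5 and Slc3a2 had r = 0.708. By likeness to Slc7a5, Slc3a2 ranked 114 among the 5508 candidate genes with a mean level of at least 1. By likeness to Slc3a2, Slc7a5 ranked 453. The genes most like Slc7a5 were Nus1 (r = 0.898), Gnl3 (r = 0.896) and Eif3g (r = 0.878). Those most like Slc3a2 were Sik1 (r = 0.973), Sub1 (r = 0.964) and Hspa5 (r = 0.962), and those most like Asns were Wdr18 (r = 0.91), Eef1d (r = 0.893) and Nob1 (r = 0.885). Slc3a2 and Slc38a1 ran in opposite directions (r = -0.87), and Slc7a6 and Asns together (r = 0.658). The first gene of the other 5 carriers with a list was Nck1 for Slc1a5 (r = 0.842), Rpl7l1 for Slc7a1 (r = 0.888), Spast for Slc7a6 (r = 0.864), Prps2 for Slc38a1 (r = 0.899) and Plbd2 for Slc38a2 (r = 0.818).

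Other genes of amino acid handling were counted from 4 lists, which share some genes, such as Slc38a9 in those of carriers and of sensing. Of 16 tested other amino acid carriers, 5 rose and 2 fell in GC-PB vs Fraction 1, beside 14.1% higher and 22.3% lower among all genes. Whether so few genes differ from the background was not tested. When any 1 of GC-PB replicate 1, Fraction 1 replicate 1 and Fraction 1 replicate 3 was left out, 4 of the 16 were called. Slc38a10 was at 5.99 in GC-PB and 0.575 in Fraction 1 (2.15 ± 0.24, adjusted p = 2.41e-07, limma) and Slc7a7, the light chain y+LAT1, at 0.759 and 0.154 (0.60 ± 0.16, adjusted p = 0.00516), while the taurine carrier Slc6a6 was at 0.714 in GC-PB and 5.24 in Fraction 1 (-1.86 ± 0.19, adjusted p = 1.07e-07). The same 16 had 0 calls by limma in Fraction 1 vs Fraction 2, Fraction 2 vs Fraction 3 and Fraction 3 vs DZ, with 3, 1 and 1 at an unadjusted p under 0.05. Their median change was 0.24 in GC-PB vs Fraction 1 and -0.15 in Fraction 1 vs Fraction 2.

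Of 29 tested amino acid enzymes, 2 rose and 10 fell in GC-PB vs Fraction 1, beside a background of 14.1% higher and 22.3% lower, with a median change of -0.38 against -0.06 over all genes. The difference of these counts from the background was not tested. Il4i1, a secreted oxidase of phenylalanine, was at 0.0328 in GC-PB and 5.64 in Fraction 1 (adjusted p = 5.21e-08, limma). Mat2a, which makes S-adenosylmethionine, was at 3.64 in GC-PB and 13.7 in Fraction 1 (-1.66 ± 0.17, adjusted p = 7.34e-08), and the mitochondrial serine hydroxymethyltransferase Shmt2 at 6.73 in GC-PB and 17.1 in Fraction 1 (-1.24 ± 0.15, adjusted p = 6.85e-07). In Fraction 1 vs Fraction 2, 6 rose and 1 fell, beside 3.79% higher and 5.25% lower among all genes, and leaving out a library took the number called down to 3 without Fraction 2 replicate 2 and to 4 without Fraction 1 replicate 1. Shmt2 was at 17.1 in Fraction 1 and 9.73 in Fraction 2 (0.76 ± 0.15, adjusted p = 0.00198), the tryptophan-degrading Ido1 at 2.66 and 0.838 (0.97 ± 0.21, adjusted p = 0.00554) and Mat2a at 13.7 and 7.85 (0.73 ± 0.17, adjusted p = 0.00812). In Fraction 2 vs Fraction 3, 1 rose, Shmt2 (0.71 ± 0.15, adjusted p = 0.0286), a call lost without any 1 of 5 of the 6 libraries (all but Fraction 3 replicate 1, 0.60 to 0.77). In Fraction 3 vs DZ, 1 rose, Il4i1, at 3.45 in Fraction 3 and 0.492 in DZ (1.51 ± 0.26, adjusted p = 0.00475).

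The list of amino acid response genes linked to ATF4 shares Shmt2, Psat1, Phgdh, Psph, Aldh18a1, Pycr1, Cth and Gpt2 with that of the enzymes. It shares Sesn2 and Eif4ebp1 with that of sensing and mTORC1, so counts of these lists are not independent. Of its 22 tested genes, 5 rose and 3 fell in GC-PB vs Fraction 1, beside 14.1% higher and 22.3% lower among all genes. The 3 with the smallest p fell: the folate enzyme Mthfd2, at 1.59 in GC-PB and 7.67 in Fraction 1 (-1.77 ± 0.18, adjusted p = 6.15e-08, limma), Shmt2, and the serine synthesis enzyme Psat1, at 2.6 and 9.1 (-1.55 ± 0.23, adjusted p = 1.57e-05). The 5 that rose were Atf4 and 4 others, chosen for naming after their values were seen. These were the kinase PERK (Eif2ak3, at 3.32 in GC-PB and 1.06 in Fraction 1), the transcription factors Atf3 (2.15 in GC-PB and 0.041 in Fraction 1) and Atf5 (0.712 in GC-PB and 0.157 in Fraction 1), and Chac1, a glutathione-degrading enzyme (0.415 in GC-PB and listed at 0 in Fraction 1). The GC-PB libraries lay above those of Fraction 1 for Chac1 and overlapped them for Eif2ak3, Atf3 and Atf5. Without GC-PB replicate 1, 5 of the 22 were called in place of 8, and the calls of Eif2ak3 (0.42), Atf3 (0.29) and Atf5 (0.50) were among those lost. Those 3 calls were also lost in a fit of GC-PB and Fraction 1 alone, while that of Chac1 held without any 1 library (0.39 to 0.59). But the Chac1 mean of 0.415 lay below the level of 3 molecules in each GC-PB library (0.591 to 0.6985), near the limit of detection. In Fraction 1 vs Fraction 2 and in Fraction 2 vs Fraction 3, 1 of 22 was called, Shmt2, higher in both. In Fraction 3 vs DZ, 0 of 22 were called by limma and 2 had an unadjusted p under 0.05.

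Of 36 tested genes of amino acid sensing and mTORC1, 4 rose and 4 fell in GC-PB vs Fraction 1, beside a background of 14.1% higher and 22.3% lower. Seh1l, a subunit of the GATOR complex and of the nuclear pore, was at 0.968 in GC-PB and 4.22 in Fraction 1 (-1.42 ± 0.19, adjusted p = 4.65e-06, limma), and folliculin (Flcn) at 0.215 and 1.28 (-0.92 ± 0.21, adjusted p = 0.00155). The mTOR inhibitor Deptor was at 0.212 in GC-PB and listed at 0 in Fraction 1 (adjusted p = 0.00118, limma). That mean lay within the level of 1 molecule in the GC-PB libraries (0.197 to 0.2328). Deptor was thus near the limit of detection, and nothing is read from its call. In Fraction 1 vs Fraction 2, 1 of 36 rose, the GATOR subunit Mios, at 1.81 in Fraction 1 and 0.689 in Fraction 2 (0.74 ± 0.20, adjusted p = 0.0214), a call lost without any 1 of 5 of the 6 libraries (all but Fraction 2 replicate 2, 0.70 to 0.78). In Fraction 2 vs Fraction 3 and in Fraction 3 vs DZ, 0 of 36 were called by limma, and 2 had an unadjusted p under 0.05 in each.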

How the data were processed

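The deposited values are a signal per gene and library, 23420 genes in 15 libraries. Per the labels' protocols, the authors spiked every tube with an equal quantity of ERCC RNA, tagged cDNA with molecular barcodes by oligo-dT reverse transcription, and amplified it by template switching and PCR. Per the submitters' processing notes, TopHat2 (version not given) and mm10 were used. The normalization is not given in the sources used here. Between 91.0% and 92.5% of values above 0 were whole multiples of the commonest value in their library, within a tolerance of 0.02 of it, too few for a count test.

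Here each library was scaled to the median total of 38594, Rn45s left out, which removes any difference in RNA per cell. Genes above 0 in 3 or more libraries (11190) entered a fit of the 5 group means to log2(level + 1) by limma 3.58.1 (R 4.3.3, intensity trend on), with Benjamini-Hochberg adjustment over these genes. The fit was also run on simulated data with a fixed spread, in which only better-detected genes were changed. That run does not cover genes as low as Slc1a4. The Slc3a2 to Slc7a5 ratio was compared by exact permutation tests. Named genes are the 9 genes, up to 3 called genes with the smallest p from each list per comparison, the 3 genes most like each gene, and sort markers with Myc and Atf4. Eif2ak3, Atf3, Atf5 and Chac1 fell outside this rule and were named after their values were seen. The genes and lists were chosen with earlier results of these data known. Fraction 1 vs DZ was added after the data were seen. Positions come from GENCODE vM21. Figures were drawn in Python 3.11.15 (matplotlib 3.10.9).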

Additional observations from a re-analysis of the deposited data

How the results depend on the processing

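Alternatives were the deposited scale, median ratios, Rn45s kept in the total, added constants of 0.25 and 4, no filter, a filter on a mean level of 1, no intensity trend, a replicate block, fits of 2 groups and leaving out each library. Fraction 1 vs DZ and the other pairs beyond the 4 comparisons of neighbouring groups of the sort were added after seeing the data. So were the list counts and list genes, with Chac1, Eif2ak3, Atf3 and Atf5. A count test on recovered molecules was planned and not run, since too few values were whole. For the alternatives given here the cause of the change was not tested.

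On the deposited scale 9 of the 9 genes were called higher in Fraction 1 vs Fraction 2 (2 at equal totals) and in Fraction 1 vs DZ (5 at equal totals, with 0 lower in place of 2), 6 were called lower in GC-PB vs Fraction 1 (3 at equal totals) and 1 was called higher in Fraction 2 vs Fraction 3 (0 at equal totals). Signs turned there for Slc1a5 in GC-PB vs Fraction 1 (-0.257), Fraction 1 vs Fraction 2 (1.23), Fraction 2 vs Fraction 3 (0.116) and Fraction 1 vs DZ (0.97). They also turned for Slc38a1 in Fraction 2 vs Fraction 3 (0.168), GC-PB vs Fraction 2 (0.0627) and Fraction 1 vs DZ (1.04), for Slc38a2 in GC-PB vs Fraction 1 (-0.587) and in Fraction 1 vs Fraction 2 (1.3), for Asns in Fraction 3 vs DZ (-0.004), and for Atf4 in GC-PB vs Fraction 1 (-0.112) and in Fraction 2 vs Fraction 3 (0.363). With Rn45s kept Atf4 was at 0.00534 in Fraction 2 vs Fraction 3. With median ratios Slc1a5 (0.0211) and Slc38a2 (0.0462) turned in Fraction 1 vs Fraction 2, and 2 genes were higher in GC-PB vs Fraction 1. On the deposited scale the list counts moved in Fraction 1 vs Fraction 2 to 4 other carriers (0 at equal totals), 21 enzymes (7), 13 response genes (1) and 24 sensing genes (1), in GC-PB vs Fraction 1 to 19 enzymes (12) and 19 sensing genes (8), and in Fraction 2 vs Fraction 3 to 4 enzymes (1) and 2 response genes (1). In Fraction 1 vs DZ, 1 gene was called lower with median ratios, Rn45s kept, an added 0.25 or no filter.

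The Slc3a2 to Slc7a5 difference with an added 0.25 was 1.72 in GC-PB vs Fraction 1, -0.655 in Fraction 1 vs Fraction 2 and -0.37 in Fraction 2 vs Fraction 3. With deposited values it was 0.0832 in Fraction 2 vs Fraction 3 and -0.147 in Fraction 1 vs Fraction 2. Leaving out each library gave -0.197 to 0.0121 in Fraction 2 vs Fraction 3.

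Leaving out each library, 0 to 2 of the 9 genes were called higher in Fraction 1 vs Fraction 2, and in Fraction 1 vs DZ 3 to 4 were called higher and 0 to 1 lower. In GC-PB vs Fraction 1, 1 was called higher each time and 2 to 4 lower. Changes that crossed 0 ran from -0.0529 to 0.202 for Slc38a2, -0.123 to 0.127 for Asns and -0.171 to 0.079 for Atf4 in Fraction 3 vs DZ, from -0.145 to 0.105 for Atf4 in Fraction 2 vs Fraction 3, from -0.00787 to 0.167 for Slc7a1 in Fraction 1 vs Fraction 2, from -0.0835 to 0.16 for Slc38a2 in GC-PB vs Fraction 1 and from -0.0339 to 0.149 for Slc1a4 in Fraction 1 vs DZ.

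Replicate numbers did not pair the libraries: same-numbered libraries of different groups had r of -0.0429 to 0.0393 over 30 pairs, 0 of them over 0.1. With the replicate block the calls of Slc7a1 in Fraction 1 vs DZ (0.723) and Shmt2 in Fraction 2 vs Fraction 3 (0.708) were lost, and it changed no other call of the 9 genes in the comparisons run. Among the 9 genes depth limits Slc1a4 most, and Slc7a5, Asns, Slc7a6 and Slc7a1 in the groups with under 30 molecules. For Slc7a1 that group is GC-PB, with 22.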
